A study of Homo sapiens with 6 samples.

Results

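Cathepsins are proteases that work mainly in lysosomes, and the 10 genes described here are CTSS, CTSZ, CTSO, CTSB, CTSL, CTSC, CTSH, CTSK, CTSA and CTSD, chosen by symbol from the 61541 genes in the count tables. They were measured in RCC4, an established human clear cell renal cell carcinoma line labelled as epithelial. The 3 untreated cultures were compared with 3 cultures that had received interferon gamma (IFNγ) at 1000 U/mL and tumour necrosis factor (TNF) at 25 ng/mL together for 24 h. Each biological replicate combined 3 flasks, and its poly(A) RNA was read directly, without conversion to cDNA, on a nanopore. Because both cytokines were always given together, their separate contributions cannot be told apart, and the culture is a single line. Alignment names in the headers of all 6 tables carry the word dmso, a word absent from the labels, from which the groups were taken.

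Cathepsins are made as inactive precursors, sorted to the endosome and lysosome, and activated there by removal of a propeptide. CTSA encodes a serine carboxypeptidase and CTSD an aspartic protease, whereas the other 8 genes encode papain-like cysteine proteases. In cells that present antigen on MHC class II molecules, CTSS removes the invariant chain, the product of CD74, so that peptides can bind. Cystatins and some serpins inhibit cathepsins.

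Library totals ran from 3626000 to 4406296 counts, and the 10 cathepsins took between 0.0694% and 0.218% of them. Renal carcinoma epithelial markers were all detected, 8 of 8, with summed counts of 27386 to 29758 in untreated and 29893 to 45074 in treated libraries. Most of these counts were VIM, with 17053 to 19615 in untreated and 22176 to 33283 in treated libraries. CDH16 and EPCAM had 14 to 126 counts per library. Of 15 leukocyte markers, 9 were at 0 in all 6 libraries, among them PTPRC, LYZ, SPI1 and TYROBP, and the summed counts of the list were 13 to 26 in untreated and 8 to 14 in treated libraries. CD68, also at 0, shares 82.6% of its last 500 exonic bases with another gene on its strand, where a read may go uncounted. CSF1R, a leukocyte marker and the only one tested, fell (log2 fold change -1.90, edgeR adjusted p = 0.0314). Of the renal carcinoma list VIM rose (0.66, adjusted p = 0.0274) and PAX8 fell (-0.79, adjusted p = 0.0316). Of 8 stromal and endothelial markers, 5 were at 0 throughout, the list summed to 215 to 338 counts in untreated and 102 to 179 in treated libraries, and PDGFRB fell (-1.91, adjusted p = 0.0049). The calls of CSF1R (in 5 of 6 cases, all but untreated replicate 3, adjusted p from 0.0885 to 0.145, and in DESeq2, 0.0619, and limma voom, 0.0606), VIM (without replicate 1 or 2 of either group, 0.0561 to 0.126) and PAX8 (all but untreated replicate 3, 0.0657 to 0.153) were lost on leaving out a library. The part of these markers in the cathepsin values was not tested.

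Changes are given as log2 fold changes of treated over untreated, and levels as CPM, counts scaled to a common normalised library size. Of the 10 cathepsins, 9 passed the filter on low counts, and 3 of these rose with the cytokines (CTSS, CTSZ and CTSO, edgeR quasi-likelihood test, Benjamini-Hochberg adjusted p under 0.05). Among all 10067 genes tested, 5.58% were called higher. No cathepsin was called lower, against 2.55% of all genes; none was lower at an unadjusted p under 0.05 either, as 8.85% of all genes were, and DESeq2 and limma voom also called 0 lower. DESeq2 called 4 of the 9 higher (CTSB in addition), against 6.48% of all genes, and limma voom 3 of the 9, against 5.55%. All 3 treated libraries lay above all 3 untreated ones for 4 of the 9, CTSS, CTSZ, CTSO and CTSB, as they did for 13.9% of all genes. The median log2 fold change of the 9 was 0.88, beside -0.03 over all genes tested. Leaving out both libraries numbered 3, a choice made after seeing the data because many cathepsins were highest there, gave 4 cathepsins called higher, CTSB in addition, against 5.62% of all genes.

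**Figure D1:**
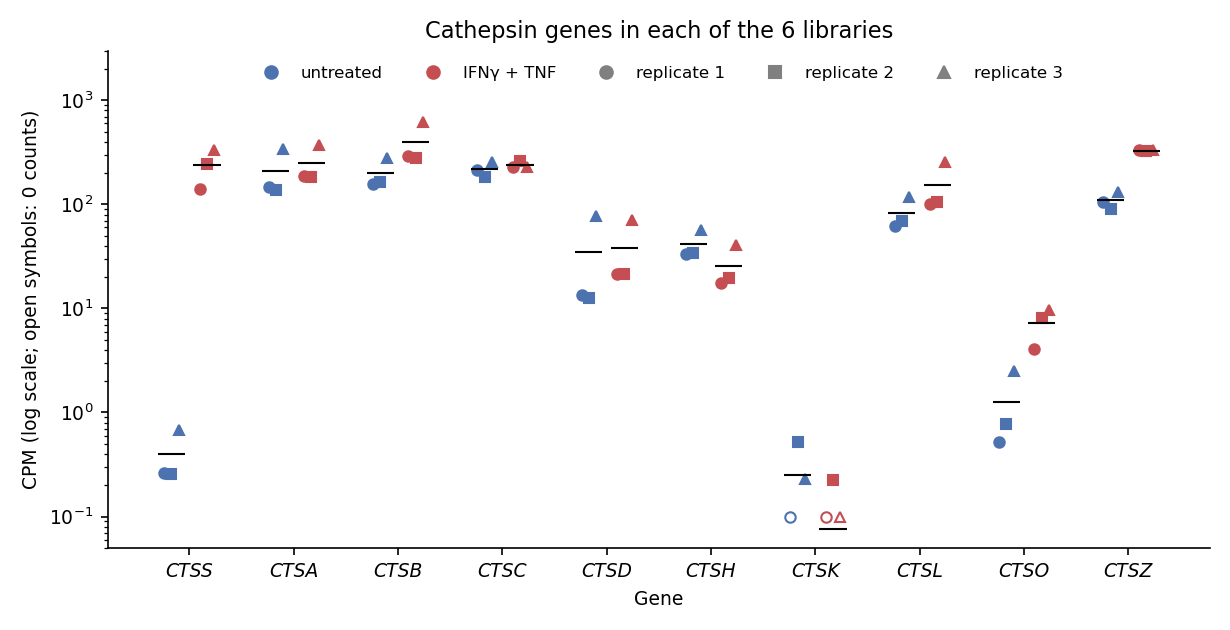
Level of each of the 10 cathepsin genes in CPM (log axis) in each library, with 3 untreated and 3 IFNγ plus TNF replicates marked separately and the group mean as a line; libraries with 0 counts are open symbols at an arbitrary low position. CTSS moves from under 1 CPM to between 141.8 and 331.7 CPM, and CTSZ separates without overlap, while CTSA, CTSC and CTSD overlap between groups.

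The sequences before the start sites of CTSZ, CTSA and CTSD are shown to set a cathepsin that rose beside 2 that gave no call and differed widely between replicates. They are the 250 bases upstream of the start in RefSeq (GRCh38.p14), whose promoter table matched 6 of the 10 genes (CTSA, CTSC, CTSD, CTSH, CTSL and CTSZ). They read 5′ to 3′ on the strand of the gene, from chr20:59007255-59007504 (minus) for CTSZ, chr20:45891085-45891334 (plus) for CTSA and chr11:1763928-1764177 (minus) for CTSD, and capitals mark CACGTG, the core of the E-box in the element through which TFEB acts on lysosomal genes.
CTSZ: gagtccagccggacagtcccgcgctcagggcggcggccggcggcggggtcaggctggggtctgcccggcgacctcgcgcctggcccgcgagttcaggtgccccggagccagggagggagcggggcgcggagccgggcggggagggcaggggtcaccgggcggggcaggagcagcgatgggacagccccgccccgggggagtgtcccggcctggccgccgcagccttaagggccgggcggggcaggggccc
CTSA: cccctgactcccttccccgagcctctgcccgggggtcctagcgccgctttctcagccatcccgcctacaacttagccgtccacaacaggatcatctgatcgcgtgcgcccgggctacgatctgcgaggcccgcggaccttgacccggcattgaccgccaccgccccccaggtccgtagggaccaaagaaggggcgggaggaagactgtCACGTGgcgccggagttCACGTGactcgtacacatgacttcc
CTSD: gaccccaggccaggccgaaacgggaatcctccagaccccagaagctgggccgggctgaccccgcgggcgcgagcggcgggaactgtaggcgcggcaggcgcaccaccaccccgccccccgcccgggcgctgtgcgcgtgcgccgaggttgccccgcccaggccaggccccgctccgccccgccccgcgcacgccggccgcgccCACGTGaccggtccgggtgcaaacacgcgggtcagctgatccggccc

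CACGTG, its own reverse complement, occurred in these windows of CTSA, at -42 and -25 counted from the start to its first base, and of CTSD, at -47, and in 6.34% of the 250-base windows of all 35116 promoters. It was in none of the other 4 windows, those of CTSC, CTSH, CTSL and CTSZ. CTSH and CTSL also gave no call and were also highest in replicate 3 of each group. A link between CACGTG and the spread between replicates was not tested. The gamma-activated site, TTC and GAA with any 3 bases between them, was on either strand in 0 of the 6 windows and in 6.57% of all. The core of the interferon-stimulated response element, GAAA and GAAA with any pair of bases between them, was on either strand in 0 of the 6 and in 3.02% of all. The loose NF-kappaB core, GGG and CC with any 5 bases between them, on both strands and with overlapping matches counted, was in 54.4% of all windows and matched 7 times in CTSZ, 4 times each in CTSD and CTSL, 2 times in CTSH and 0 times in CTSA and CTSC. Matches 1 base apart were at -195 and -194, -73 and -72, and -55 and -54 in CTSZ, -199 and -198 in CTSD, and -247 and -246 in CTSL. The share of G and C in the windows was 81.2% in CTSZ, 79.2% in CTSD, 74.4% in CTSH, 69.2% in CTSL, 65.6% in CTSA and 58.4% in CTSC. Its part in these matches was not tested. A match is a run of letters and not a bound site, and a window without a match says nothing of sites elsewhere. Each of the 6 windows lies inside the span of its gene as annotated for counting. That annotation therefore holds exonic bases upstream of the window, and bases before other starts of these genes were not searched.

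CTSS, on chromosome 1 (GRCh38, chr1:150730079-150765957, minus strand, ENSG00000163131), had 1, 1 and 3 counts in untreated replicates 1, 2 and 3. Treated replicates 1, 2 and 3 had 491, 1076 and 1163. Untreated cells were therefore at the limit of what these libraries detect, since 3 counts correspond to between 0.677 and 0.866 normalised CPM. Treated levels were 141.8, 242.8 and 331.7 CPM, and no treated library came near an untreated one. The mean went from 0.401 ± 0.244 to 238.8 ± 95 CPM (SD, n = 3 per group). Pooled over replicates, 2730 counts against 5 gave a ratio of 578.5 after normalisation, with an exact 95% interval of 247.6 to 1783 that covers counting error only. The fitted log2 fold change was 9.07 (SE 0.51, edgeR adjusted p = 9.68e-06), a size that depends on the prior count because untreated counts are so few. In bulk RNA, more cells carrying CTSS transcripts and more transcripts per cell cannot be told apart, here and for every gene below.

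The genes beside CTSS did not show its change. GOLPH3L, the nearest tested gene on one side, had a log2 fold change of 0.05 (edgeR adjusted p = 0.973), and ARNT, a partner of the hypoxia-inducible factors and the nearest tested gene on the other side, one of -0.33 (adjusted p = 0.6). CTSK, the collagen-degrading cathepsin known from osteoclasts, lies 28.9 kb from CTSS (chr1:150794880-150809577, minus strand, ENSG00000143387) and was barely detected. Untreated replicates 1, 2 and 3 gave 0, 2 and 1 counts and treated ones 0, 1 and 0, at or below the 3-count limit in every library. No fold change is given for CTSK, and no difference was detectable at this depth.

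The 5 genes whose log2 CPM followed that of CTSS most closely over the 6 libraries, by root mean square distance of centred values, were GBP1 (0.29), OAS2 (0.30), IL18BP (0.41), GBP5 (0.46) and SLAMF8 (0.46). GBP1, an interferon-induced guanylate-binding protein, was at 3.67, 5.43 and 6.15 CPM in untreated and at 1153, 2141 and 1890 CPM in treated replicates. IL18BP, which encodes the binding protein of interleukin 18, was at 0.262, 0.517 and 0.911 CPM in untreated and 348.6, 309.9 and 385.6 CPM in treated replicates. In both genes the groups were far apart, as for CTSS, and the likeness is dominated by that step between groups. GBP5 and SLAMF8 had no count in any untreated library.

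Both class II partners of CTSS rose. CD74, the invariant chain, was at 124.1, 141.9 and 196.3 CPM in untreated and 1265, 1187 and 1216 CPM in treated replicates (log2 fold change 2.99, edgeR adjusted p = 3.79e-05). CIITA, the coactivator that switches on class II genes, went from 0, 0 and 2 counts to 47, 54 and 35, a normalised ratio of 72.1 with an exact 95% counting interval of 19.6 to 601 (edgeR adjusted p = 0.000639). Both were separated from the untreated libraries without overlap, and both passed the test in all 14 alternative settings, as CTSS did.

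CTSZ, a carboxypeptidase also called cathepsin X, was the other cathepsin that passed in all 14 alternative settings (chr20:58985686-59008238, minus strand, ENSG00000101160). Its level was 104.7, 91.3 and 132.1 CPM in untreated and 330.1, 324.5 and 334.6 CPM in treated replicates. The treated libraries lay close together and far above every untreated one. The mean rose 3.02-fold, from 109.4 ± 20.8 to 329.7 ± 5.02 CPM (SD, n = 3), a log2 fold change of 1.59 (SE 0.19, and adjusted p = 0.000822). The nearest tested genes to CTSZ, GNAS (74494 bases away) and ATP5F1E (17237 bases away), had log2 fold changes of 0.04 (adjusted p = 0.935) and 0.44 (adjusted p = 0.252).

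CTSO, a little-studied member of the papain family, was rare in both groups (chr4:155921580-155953912, minus strand, ENSG00000256043). Its counts were 2, 3 and 11 without and 14, 36 and 34 with the cytokines, or 0.524, 0.776 and 2.51 against 4.04, 8.12 and 9.70 CPM. The groups did not overlap, but the highest untreated library, replicate 3, came within 3 counts of the lowest treated one. The log2 fold change was 2.46 (SE 0.59, edgeR adjusted p = 0.0337). That call was lost with library totals as the only scaling (adjusted p = 0.0652) and without untreated replicate 1 (0.0564), untreated replicate 2 (0.141), treated replicate 2 (0.103) or treated replicate 3 (0.142). The nearest tested genes to CTSO were GUCY1B1, 113769 bases away (log2 fold change -0.26, adjusted p = 0.843), and PDGFC, 806542 bases away (-1.10, adjusted p = 0.0782).

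**Figure D2:**
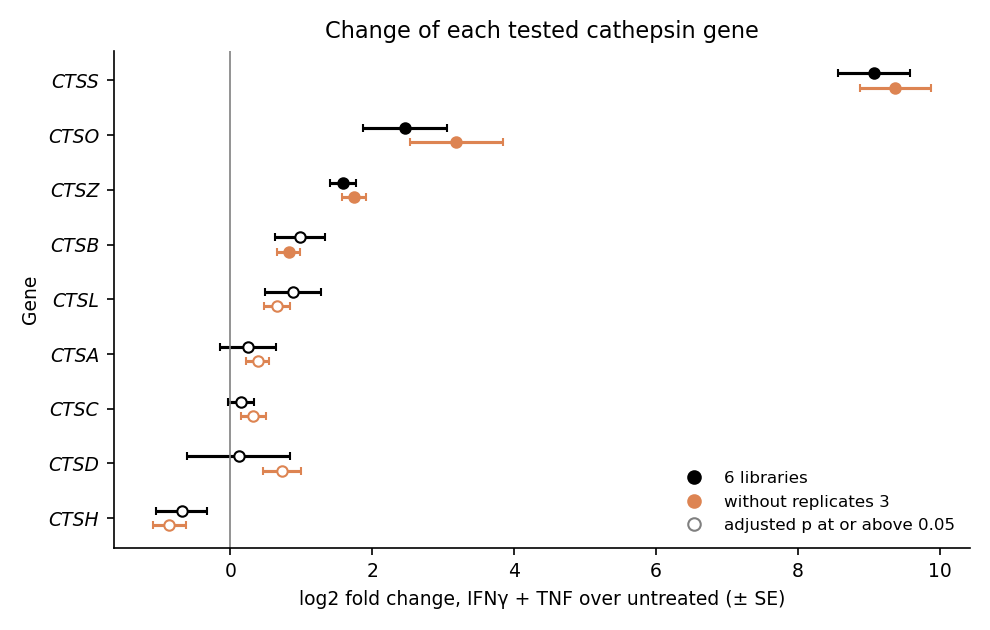
Log2 fold change of each tested cathepsin, IFNγ plus TNF over untreated, with its standard error, from the edgeR fit on all 6 libraries (black) beside the fit without both libraries numbered 3 (orange); filled symbols passed the test. CTSS, CTSZ and CTSO pass the test in both fits, CTSB only in the second (0.98 against 0.82), and CTSH is the one gene below 0.

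CTSB, an endopeptidase that also removes dipeptides from the carboxy terminus, was higher in every treated library, though it did not pass the test (chr8:11842524-11869533, minus strand, ENSG00000164733). It stood at 157.9, 164.4 and 277.4 CPM in untreated and 290.8, 278.5 and 618.4 CPM in treated replicates. The highest untreated and lowest treated libraries nearly touched, and in each group replicate 3 was far above the others. The log2 fold change was 0.98 (SE 0.35, edgeR adjusted p = 0.147). It passed without untreated replicate 3 (adjusted p = 0.0221), without both libraries numbered 3 (0.0122) and in DESeq2 (0.0401).

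CTSL, an endopeptidase, was also highest in replicate 3 of each group (chr9:87724051-87731469, plus strand, ENSG00000135047). It was at 62.1, 69.5 and 117.7 CPM in untreated and 100.5, 106.3 and 253.6 CPM in treated replicates. Untreated replicate 3 lay above treated replicates 1 and 2, so the groups overlapped. The log2 fold change was 0.88 (SE 0.39, edgeR adjusted p = 0.253), and 0.66 without both libraries numbered 3 (adjusted p = 0.0575).

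CTSC, the dipeptidyl peptidase that activates serine proteases of leukocyte granules, did not pass the test (chr11:88265069-88359684, minus strand, ENSG00000109861). Its level was 212.3, 182.0 and 256.4 CPM in untreated and 230.5, 262.7 and 226.8 CPM in treated replicates. The groups overlapped, and the log2 fold change stood at 0.15 (SE 0.18, and adjusted p = 0.773).

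CTSH, an aminopeptidase, was the one tested cathepsin of the 10 with a lower mean after treatment (chr15:78921058-78949574, minus strand, ENSG00000103811). It was at 33.5, 33.9 and 56.7 CPM in untreated and 17.6, 19.4 and 40.5 CPM in treated replicates. Treated replicates 1 and 2 were the lowest of all, while treated replicate 3 exceeded untreated replicates 1 and 2. The log2 fold change was -0.68 (SE 0.36, edgeR adjusted p = 0.349), and -0.86 without both libraries numbered 3 (adjusted p = 0.0593).

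CTSA, the serine carboxypeptidase that also protects lysosomal neuraminidase and beta-galactosidase, gave no call (chr20:45890144-45898949, plus strand, ENSG00000064601). It was at 147.7, 136.5 and 338.2 CPM in untreated and 188.0, 183.5 and 370.8 CPM in treated replicates. Replicate 3 of both groups stood apart from the other 4 libraries, and the groups overlapped. The log2 fold change was 0.25 (SE 0.40, edgeR adjusted p = 0.833), and it turned to -0.15 without treated replicate 3.

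CTSD, the aspartic protease of the lysosome, had the largest SD relative to its mean among the 9 tested genes, in both groups (chr11:1752752-1764573, minus strand, ENSG00000117984). It was at 13.4, 12.7 and 77.9 CPM in untreated and 21.4, 21.7 and 70.7 CPM in treated replicates. The highest library of all was an untreated one, replicate 3, and treated replicate 3 was next. The log2 fold change was 0.12 (SE 0.73, edgeR adjusted p = 0.965), and leaving out one library at a time moved it between -0.68 and 1.54. Of its annotated exonic bases, 27.3% are shared with other genes on the same strand, where a read may go uncounted, but none of its last 500 bases, where direct RNA reads begin. The other 9 cathepsins share no exonic bases on their strand.

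Of the 5 cathepsin genes outside the 10, 2 were tested, CTSF and CTSV. They gave no call in edgeR, DESeq2 or limma voom, and 0 at an unadjusted p under 0.05. With 2 genes, and 5.58% of all genes called higher and 2.55% lower, a count of 0 does not set them apart. CTSF had untreated counts of 23, 30 and 48 and treated counts of 17, 25 and 17 (log2 fold change -0.68, edgeR adjusted p = 0.312). In CPM its treated libraries (4.85 to 5.64) all lay below its untreated ones (6.02 to 10.9), as they did for 1206 of all 10067 genes tested. CTSV, a close relative of CTSL, had untreated counts of 6, 7 and 33 and treated counts of 2, 17 and 13 (log2 fold change -0.42, adjusted p = 0.855). CTSW and CTSE were below the filter, and CTSG, a serine protease of neutrophil granules, had no count in any library.

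A library numbered 3 was the highest of its group for nearly every cathepsin. Untreated replicate 3 was the highest untreated library for 9 of the 9 tested genes, compared with 45.4% of all genes tested. For CTSS this rests on untreated counts of 1, 1 and 3, at the limit of detection. Treated replicate 3 was the highest treated library for 8 of 9, compared with 27.3% of all genes. Relative to the mean of replicates 1 and 2, untreated replicate 3 held 5.99 times as much CTSD, 3.86 times as much CTSO and 2.38 times as much CTSA, but 1.35 times as much CTSZ and 1.30 times as much CTSC. In the treated group these ratios were 3.29 for CTSD, 1.59 for CTSO, 2.00 for CTSA, 1.02 for CTSZ and 0.92 for CTSC. The median ratio over the 9 cathepsins was 1.79 in untreated and 2.00 in treated cells, beside 1.03 and 0.965 over all genes. Other lysosomal genes moved with them: replicate 3 was the highest untreated library for 40 and the highest treated library for 42 of 51. The labels name no batch that sets these libraries apart, and what the libraries numbered 3 share was not tested.

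**Figure D3:**
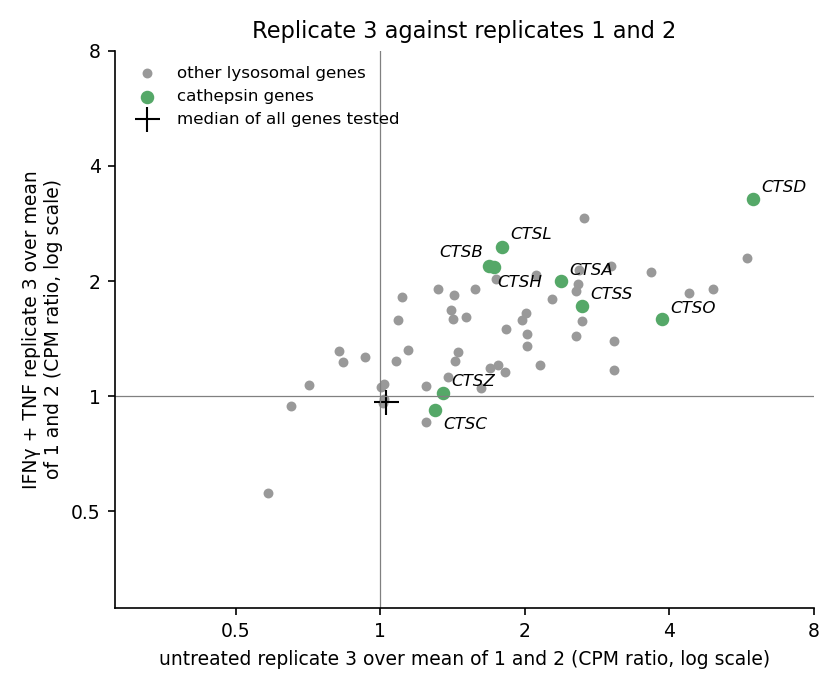
Ratio of replicate 3 to the mean of replicates 1 and 2 (CPM, log axes) in untreated cells on the horizontal axis and IFNγ plus TNF cells on the vertical axis, for 9 cathepsins, 51 other lysosomal genes and the median of all genes tested. Most cathepsins lie above 1 on both axes, CTSD farthest, while CTSZ and CTSC lie near the median of all genes.

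Levels of different cathepsins were compared per length, as CPM per kilobase of annotated exonic sequence. In untreated cells CTSA (24.0 ± 13.1), CTSB (19.0 ± 6.37) and CTSL (13.6 ± 4.94) led, followed by CTSC (8.73 ± 1.51), CTSD (6.08 ± 6.57), CTSZ (5.64 ± 1.07) and CTSH (3.01 ± 0.966), all as CPM per kilobase (SD, n = 3). CTSO (0.160), CTSS (0.0582) and CTSK (0.0294) closed the order. Among neighbours in that order, only CTSZ over CTSH and CTSH over CTSO held in every pair of libraries. In treated cells the order began with CTSB (37.6 ± 18.3), CTSS (34.7 ± 13.8), CTSA (28.7 ± 12.4) and CTSL (25.1 ± 14.2), whose libraries overlapped. Per kilobase, CTSS thus went from place 9 to place 2. CTSZ (17 ± 0.259) lay above CTSC (9.66 ± 0.796) in every pair of libraries, and below CTSC came CTSD (6.66 ± 4.99), CTSH (1.88 ± 0.925), CTSO (0.922 ± 0.369) and CTSK (0.00891), with CTSD above CTSH, CTSH above CTSO and CTSO above CTSK in every pair of libraries. The length counts the exons of all annotated transcripts of a gene, and is not the length of the molecules read. It was 6888 bases for CTSS, 19384 for CTSZ and 24849 for CTSC, and the places above depend on it. Direct RNA reads begin at the last bases of a molecule, so their number need not grow with length. Whether it does in these libraries was not tested. In CPM, without division by length, the order differed. The highest untreated mean was that of CTSC (216.9). Treated CTSS (238.8) had a lower mean than CTSB (395.9), CTSZ (329.7), CTSA (247.4) and CTSC (240.0), though its libraries overlapped those of each.

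Summed over the 10 genes, cathepsin reads came to 732.3, 691.9 and 1260 CPM in untreated and 1325, 1448 and 2257 CPM in treated replicates. The sum was higher in every treated library, though untreated replicate 3 was close to treated replicate 1. CTSS made up between 0.0358% and 0.0542% of the sum in untreated cells and 10.7%, 16.8% and 14.7% of it in treated replicates 1, 2 and 3. Without CTSS the sum was 894.3 ± 316.6 CPM without the cytokines and 1438 ± 422.2 CPM with them (SD, n = 3), a difference smaller than the range of either group.

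**Figure D4:**
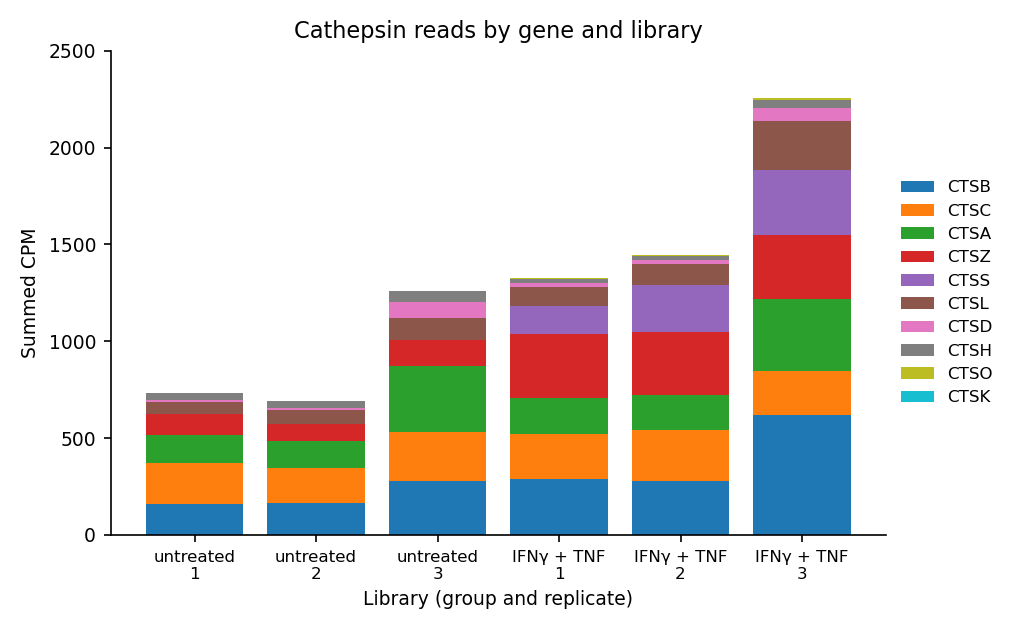
Cathepsin reads in each library, as summed CPM (bars start at 0) divided by gene, for 3 untreated and 3 IFNγ plus TNF replicates. CTSS is invisible in the untreated bars and forms 10.7% to 16.8% of the treated ones, and replicate 3 has the tallest bar in each group.

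Of 16 genes for inhibitors of cathepsins, 8 had no count in any library and 4 were tested. Of these 4, 1 was called higher and 0 lower, beside 5.58% and 2.55% of all genes tested. With so few genes, 1 call does not set the inhibitors apart. SERPINA3, among the 8, shares 89% of its last 500 exonic bases with another gene on its strand, where a read may go uncounted. SERPINB1, known mainly as an inhibitor of neutrophil serine proteases, was the one that rose, from 91.3 ± 31.1 to 225.7 ± 62.3 CPM (SD, n = 3; log2 fold change 1.30 ± 0.28 SE, edgeR adjusted p = 0.0224). That call was lost without untreated replicate 2 (adjusted p = 0.102), treated replicate 2 (0.051) or treated replicate 3 (0.096), and with library totals alone (0.0609). CST3, the secreted cystatin C, was at 467.7 ± 73.3 and 571.3 ± 92.3 CPM (adjusted p = 0.491). CSTB, the cytosolic cystatin B, was at 568.7 ± 185 and 752.9 ± 458 CPM (adjusted p = 0.685), and treated replicate 3 alone held 1279 CPM. The CPM of the 8 cysteine cathepsins divided by that of CST3 and CSTB was 0.639, 0.616 and 0.632 in untreated and 0.989, 1.36 and 0.940 in treated replicates. This quotient was close to constant across untreated libraries, replicate 3 included, and higher in every treated one, a description of reads and not of enzyme activity.

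LGMN, the asparaginyl endopeptidase that helps to activate several cathepsins, did not pass the test. It was at 42.4, 38.8 and 74.0 CPM in untreated and 89.8, 85.5 and 131.2 CPM in treated replicates, without overlap (log2 fold change 0.98 ± 0.29 SE, edgeR adjusted p = 0.0783). Without both libraries numbered 3 it passed (adjusted p = 0.00626). None of the 5 tested lysosomal peptidases outside the cathepsins passed in the fit on 6 libraries, with 1 higher at an unadjusted p under 0.05, 1 in DESeq2 and 0 in limma voom. With 5 genes and 5.58% of all genes called higher, a count of 0 does not set these peptidases apart.

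Across the 51 tested genes of 4 lysosomal lists (other peptidases, other hydrolases, sorting, and membrane and acidification), 2 rose and 0 fell, beside 5.58% and 2.55% of all genes, with a median log2 fold change of 0.20. At an unadjusted p under 0.05, 7 of the 51 were higher and 1 was lower, beside 11% and 8.85% of all genes. DESeq2 called 3 higher and limma voom 2, beside 6.48% and 5.55% of all genes, with 0 lower in both. None of these shares of higher genes is read as a result about the lysosomal lists, since they lie near those of all genes. The 2 that rose were SGSH, a sulfatase that degrades heparan sulfate (log2 fold change 1.24, edgeR adjusted p = 0.0306), and ACP2, the lysosomal acid phosphatase (1.13, adjusted p = 0.0154). Leaving out 1 library ended the call of SGSH in 4 of 6 cases, untreated replicates 1 and 2 and treated replicates 1 and 3 (adjusted p from 0.0561 to 0.13), and library totals alone ended it too (0.0665). The call of ACP2 ended without untreated replicate 2 (0.0545) or treated replicate 3 (0.0702). PSAP, the precursor of the saposins, had a log2 fold change of -0.01 (adjusted p = 0.995), and LAMP1, a major protein of the lysosomal membrane, one of 0.20 (adjusted p = 0.843). Of the 3 tested transcription factors of lysosomal genes 0 passed in edgeR, DESeq2 or limma voom. At an unadjusted p under 0.05, 1 was lower, MITF (log2 fold change -1.40, edgeR adjusted p = 0.128). TFEB had a log2 fold change of -0.06 and TFE3 one of 0.34.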

How the data were processed

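The deposited values are counts of reads per gene. The authors ran featureCounts 2.0.1 in long-read, strand-specific mode on Ensembl release 105 (GRCh38), per the file headers. The submitters' processing notes also name minimap2 2.24, SAMtools 1.16 and featureCounts 2.0.0. Of 61541 identifiers, 61369 matched a symbol.

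Counts were tested with edgeR 4.0.16 in R 4.3.3: TMM normalisation, filterByExpr, quasi-likelihood F test with group as the only term, and Benjamini-Hochberg adjustment over all 10067 genes tested, at 0.05. Code was tested on simulated data. CPM are counts scaled to the TMM-normalised library size, and a fold change is treated over untreated. SE was taken from the size of the log2 fold change over the root of its F statistic. Ratios of CTSS and CIITA, with 3 counts or fewer in each untreated library, carry exact binomial intervals at 95%, in place of a planned bound at 3 counts. P-values measure the spread between the labelled biological replicates.

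Named were all cathepsins, CST3, CSTB, LGMN, PSAP, LAMP1, TFEB, CD74 and CIITA, called members of the other lists (at most 6 each), the nearest tested neighbours of called cathepsins and the 5 genes nearest CTSS in pattern. MITF and TFE3 were named after seeing the data. The cathepsins and lists were chosen with earlier results of these data known. Alternatives were DESeq2 1.42.0, limma 3.58.1 voom, 2 scalings, 2 filters, a replicate block, leaving out each library and leaving out both numbered 3. A planned comparison of protein sequences was not run.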

Additional observations from a re-analysis of the deposited data

How the results depend on the processing

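CTSS and CTSZ passed the test in all 14 alternatives, with log2 fold changes of 8.77 to 9.67 and 1.47 to 1.74. CTSO passed in 8 of the 13 that tested it, CTSB in 5 of 14 and CTSL in 2 of 14. With every gene of at least 1 count, 5 cathepsins and 849 of 1328 called genes were higher, among 19158 tested. With the replicate block, 5 cathepsins were called higher and 1, CTSH, lower (adjusted p = 0.0229). CTSB (adjusted p = 0.000251) and CTSL (0.00288) were the 2 added. Calls also rose over all 10067 genes tested, to 1513 with 907 higher, from 819 with 562 higher in the main fit. Same-numbered libraries correlated in their deviations at 0.65, -0.004 and 0.37, and untreated replicate 2 correlated best with treated replicate 1, so the numbers were not taken as pairs. Leaving out 1 library at a time gave 2 to 4 cathepsins called higher and 0 lower. Over the 10239 to 10523 genes then tested, 455 to 1178 were called and 358 to 733 called higher. The lowest counts came without treated replicate 3 (455) and untreated replicate 2 (465), against 819 with all 6 libraries. Library totals alone moved the median over all genes tested from -0.03 to -0.13 (log2 fold change), and CTSD (-0.044), GOLPH3L (-0.07) and GNAS (-0.072) changed sign.

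Other changes of sign were of log2 fold changes that passed no test. PSAP was at 0.015 with DESeq2 size factors, 0.033 with every gene of at least 1 count, 0.0065 at a mean of at least 5 CPM, 0.016 in DESeq2, 0.038 in limma voom, 0.046 with the replicate block and 0.14 without both libraries numbered 3. Without those libraries TFEB was at 0.014 and GUCY1B1 at 0.065. Leaving out 1 library at a time gave -0.15 to 0.80 for CTSA, -0.68 to 1.54 for CTSD, -0.74 to 0.69 for CTSV, -0.21 to 0.73 for CSTB, -0.47 to 0.60 for PSAP, -0.080 to 0.61 for LAMP1, -0.21 to 0.14 for TFEB, -0.19 to 0.43 for GOLPH3L and -0.55 to 0.24 for GUCY1B1. The cause of these changes was not tested. At this depth, CTSK and untreated CTSS and CIITA could not be measured above 3 counts.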
